A study of Mus musculus with 9 samples.

Results

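The G1 cyclins, the CDK inhibitors, Myc and E2f1 form the switch that takes a cell from G1 into DNA synthesis. The 10 genes are Ccnd1, Ccnd2, Ccnd3, Ccne1, Ccne2, Cdkn1a, Cdkn1b, Cdkn2c, Myc and E2f1. They were picked by symbol and function out of the 53465 rows of the count table, with earlier results of these data known. All 10 were among the 11950 genes that passed the filter on low counts. Only Ccnd3 had a second row, a pseudogene with 14 reads over all libraries, and the row with the most reads was used.

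RNA was sequenced from 9 libraries of bone marrow-derived macrophages (BMDMs) of male wild-type C57B6 mice (C57bl6/J in the study's methods), grown with the macrophage growth factor CSF1 at 50 ng/ml and with 5 mM glutamine. The untreated group (UNX), the group treated with CO-CM and the group treated with PH-CM held 3 libraries each. CO-CM and PH-CM are media conditioned by pulmonary adventitial fibroblasts from control calves and of calves with hypoxia-induced pulmonary hypertension, and medium of each kind was pooled from several fibroblast populations, so a group repeats the macrophage culture, with no repeat over calves. The labels give the treatment as 16 h in the growth protocol and as 24 h in the treatment protocol, and the study's methods give an intermediate time for RNA isolation, so the time is not settled. The sources do not say whether CSF1 was in the conditioned media, so a change of growth factor and any other difference between the media and the untreated culture cannot be told apart.

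In G1, D cyclins pair with CDK4 and CDK6 and begin to phosphorylate the retinoblastoma protein, which otherwise holds E2F transcription factors silent. Released E2F raises E cyclins, which drive CDK2, and genes of DNA replication. CDK inhibitors of the INK4 family, such as p18 from Cdkn2c, bind CDK4 and CDK6, whereas p21 from Cdkn1a and p27 from Cdkn1b act on CDK2 and bind D cyclin complexes too. In macrophages, CSF1 is a mitogen whose early and delayed targets include Myc and Ccnd1.

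Libraries held between 62017933 and 84314201 counted reads, and 81.4% to 83.8% of the counts under 20 in a library were even, as when each mate of a pair is counted on its own. All 7 macrophage markers were above 1 CPM (counts scaled to library size and by TMM) in every library, with a summed level of 11483 to 12326 CPM in UNX, 18838 to 19781 CPM with CO-CM and 20727 to 22404 CPM with PH-CM. Lyz2 made up most of each sum (means of 7251, 12814 and 15204 CPM in that order). With CO-CM the means of Fcgr1 (89.5 CPM, against 99.5 in UNX) and Itgam (91.8, against 106.5) were lower, and those of the other markers higher. With PH-CM all 7 means were higher than in UNX. The 6 fibroblast markers summed to 194 to 245 CPM in UNX, 262 to 314 CPM with CO-CM and 244 to 331 CPM with PH-CM. Of these 6 markers 5 were above 1 CPM in every library of both media and 4 in every UNX library, with Col1a1 the highest at 115 CPM in UNX, 146 CPM with CO-CM and 148 CPM with PH-CM (group means), and Lum at 0 or near it throughout. The 6 neutrophil markers summed to at most 3.54 CPM, with Ly6g at 0, and the 4 lymphocyte markers to at most 0.15 CPM, with Nkg7 at 0. The part of other cells in the changes below was not tested. In bulk RNA, fewer cells in cycle and less RNA per cell cannot be told apart.

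Of the 10 genes, 9 were lower and 1, Cdkn1b, was higher in BMDMs treated with either medium than in UNX. A change counted as called where the FDR, the Benjamini-Hochberg adjusted p of edgeR's quasi-likelihood test over all genes tested, did not exceed 0.05 and the fold change was 1.2 or more. With PH-CM, all 10 were called, against 63.0% of all genes tested, 9 of them lower (31.7% of all genes) and 1 higher (31.3%), and 8 changed at least 2-fold (18.0%). With CO-CM, all 10 were again called (57.0% of all genes), 9 lower (28.9%) and 1 higher (28.0%), and all 10 changed at least 2-fold (13.8%). The median log2 fold change over the 10 genes was -1.83 with PH-CM and -1.81 with CO-CM, where the medians over all genes were 0.01 and 0.00. Both comparisons share the UNX libraries. The 10 genes were chosen with earlier results of these data known, so their counts beside these shares carry no test. For each of the 10 genes, no UNX library overlapped any library of either medium. The share of all genes separated in this way was not computed, so the separation cannot be called particular to these genes.

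PH-CM and CO-CM, compared directly, split the genes. Ccnd1, Ccne2, Cdkn2c and Myc were lower with PH-CM (4 of 10, against 15.0% of all genes called lower), Ccnd2, Ccnd3 and Cdkn1a were higher (3 of 10, against 12.2% called higher), and Ccne1, Cdkn1b and E2f1 were not called. The 7 calls stand against 27.1% of all genes called. The fold change reached 2 for Ccnd1 and Ccne2, 2 of 10 against 5.12% of all genes. The median log2 difference over the 10 genes was -0.03, against -0.01 over all genes.

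**Figure D1:**
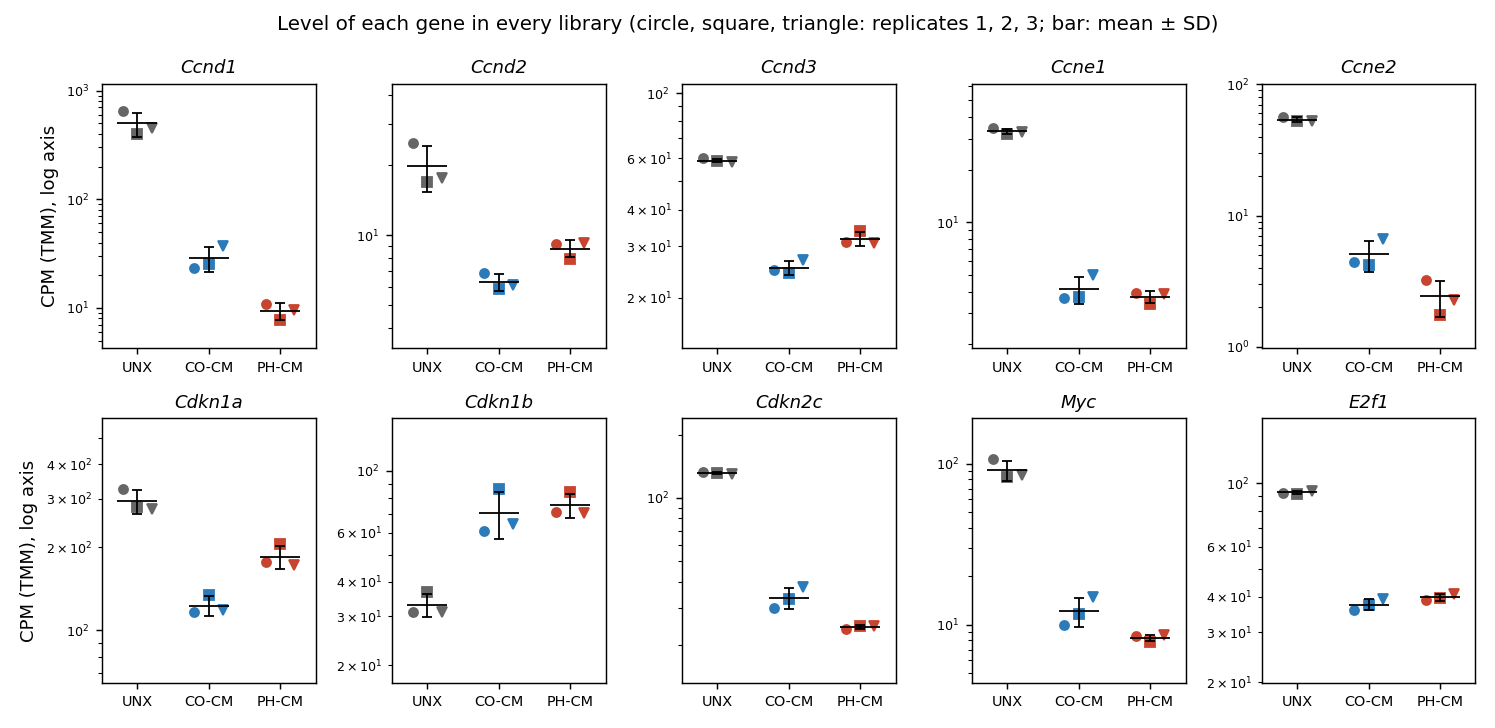
Level of each of the 10 genes in CPM (TMM-scaled, log axis, with its own range for each gene) in UNX, CO-CM and PH-CM libraries; symbols are the 3 libraries of a group and bars the mean ± SD. UNX stands above both media for 9 genes and below them for Cdkn1b, and Ccnd1 steps down from 500.0 CPM in UNX to 28.8 with CO-CM and 9.39 with PH-CM.

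Promoter sequence is shown for Cdkn1b, the gene that rose, and for Ccne1, a gene that fell about as far with both media, so that both directions are represented. The stretches lie just outside the annotated genes, read 5′ to 3′ on the strand of the gene, from RefSeq promoter windows on GRCm38.p6, with GC boxes (GGGCGG) and CCAAT boxes (CCAAT) in capitals wherever they stand on either strand. For Cdkn1b the stretch is chr6:134920151-134920400 (plus strand, 250 bases) and for Ccne1 chr7:38107535-38107740 (minus strand, 206 bases).
Cdkn1b: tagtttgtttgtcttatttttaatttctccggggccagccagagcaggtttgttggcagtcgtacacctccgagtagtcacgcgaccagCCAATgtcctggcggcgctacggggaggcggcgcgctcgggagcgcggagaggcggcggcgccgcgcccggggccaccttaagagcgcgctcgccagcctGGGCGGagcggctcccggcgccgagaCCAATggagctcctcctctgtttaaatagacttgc
Ccne1: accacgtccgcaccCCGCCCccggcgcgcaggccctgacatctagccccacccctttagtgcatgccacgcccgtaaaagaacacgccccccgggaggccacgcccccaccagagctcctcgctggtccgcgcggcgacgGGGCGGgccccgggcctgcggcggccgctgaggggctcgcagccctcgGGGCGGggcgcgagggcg
The Cdkn1b stretch held 1 GC box and 2 CCAAT boxes, and the Ccne1 stretch held 3 GC boxes and no CCAAT box. RefSeq windows were matched for 6 of the 10 genes, and for none of Ccnd1, Ccnd2, Ccne2 and Myc. The windows of E2f1 and Cdkn2c, and 1 each of Cdkn1a and Ccnd3, lie wholly inside the annotated gene, downstream of its outermost start. That Ccnd3 window held 1 CCAAT box, and Ccnd3 fell with both media. No window of the 6 matched genes held the E2F motif TTTNNCGC or the E-box CACGTG on either strand. The E2F motif and the E-box stood in 4.28% and 6.02% of 32851 windows of 250 bases. GGGCGG stood in 32.7% and CCAAT in 33.9% (no motif overlapped another in the printed stretches). These are matches of letters in a short window and say nothing of what is bound there.

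Ccnd1 encodes cyclin D1, the D cyclin through which many growth factors act on CDK4 and CDK6. The gene (ENSMUSG00000070348, chr7:144929931-144939925, minus strand, up to 5 exons) overlaps LTO1 on the other strand, with 23.4% of the Ccnd1 exon bases shared. Its level was 645, 397 and 458 CPM in UNX, 23.4, 25.6 and 37.5 CPM with CO-CM, and 10.9, 7.68 and 9.58 CPM with PH-CM. The 3 groups did not overlap, and the lowest UNX library stood more than 10 times above the highest treated one. Ccnd1 fell to 1.88% of its UNX level with PH-CM (log2 fold change -5.73 ± 0.25 SE, edgeR FDR = 1.55e-08) and to 5.77% with CO-CM (-4.11 ± 0.23, FDR = 1.3e-07). It was 3.07-fold lower with PH-CM than with CO-CM (-1.62 ± 0.23, FDR = 0.000305), lower in 3 of 3 libraries of the same replicate number. LTO1, counted without strand, had log2 fold changes of 0.47 with PH-CM and 0.38 with CO-CM, the opposite sign to Ccnd1.

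Ccnd2 and Ccnd3 encode cyclins D2 and D3, which pair with the same kinases, and they fell much less. Ccnd3 (ENSMUSG00000034165, chr17:47505051-47599691, plus strand) measured 59.8, 58.5 and 58.2 CPM in UNX, 24.9, 24.3 and 27.0 CPM with CO-CM, and 31.0, 33.8 and 30.7 CPM with PH-CM. The order of the groups was the reverse of that of Ccnd1 between the media, with no overlap. Ccnd3 was at 43.1% of UNX with CO-CM (log2 fold change -1.21 ± 0.06, edgeR FDR = 4.34e-08) and 54.1% with PH-CM (-0.89 ± 0.06, FDR = 2.17e-07), 1.25-fold higher with PH-CM than with CO-CM (0.33 ± 0.06, FDR = 0.00131). It shares 4.11% of its exon bases with Bysl on the other strand, which had log2 fold changes of -1.18 with PH-CM and -1.38 with CO-CM. The longest run that the pseudogene Ccnd3-ps shares with Ccnd3 is 89 identical bases.

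Ccnd2 (ENSMUSG00000000184, chr6:127125162-127152193, minus strand) was the least abundant D cyclin per annotated exon length in every group. It measured 25.0, 16.9 and 17.6 CPM in UNX, 6.84, 5.88 and 6.11 CPM with CO-CM, and 9.13, 7.92 and 9.24 CPM with PH-CM, without overlap between groups. Ccnd2 was at 31.8% of UNX with CO-CM (log2 fold change -1.65 ± 0.15, edgeR FDR = 3.53e-06) and 44.3% with PH-CM (-1.17 ± 0.14, FDR = 2.95e-05). Its level was 1.40-fold higher with PH-CM than with CO-CM (0.48 ± 0.15, FDR = 0.0267), higher in 3 of 3 libraries of the same number, but that call was lost when any of 4 single libraries was left out (FDR = 0.0835 without CO-CM replicate 2, 0.0791 without CO-CM replicate 3, 0.0696 without PH-CM replicate 1 and 0.0801 without PH-CM replicate 3), within a range of 0.000216 to 0.0835 over all alternatives.

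The most abundant D cyclin RNA was not the same in all groups. RPKM (reads scaled to exon length and library size) sets levels of different genes on one scale, within a limit. The length used is that of all annotated exon bases of a gene, 4709 for Ccnd1 and 8775 for Ccnd3. A gene with more annotated transcripts (21 for Ccnd3, 3 for Ccnd1) can thus read low. Shares and orders by RPKM depend on that length. Ccnd1 made up 93.5%, 90.9% and 92.0% of the summed D cyclin RPKM in the UNX libraries, 58.2%, 61.6% and 68.1% with CO-CM, and 33.9%, 25.8% and 31.2% with PH-CM. The share of Ccnd3 was 6.04% ± 1.28 (SD, n = 3) in UNX, 30.3% ± 3.58 with CO-CM and 55.5% ± 4.78 with PH-CM. By RPKM, on these lengths, Ccnd3 thus exceeded Ccnd1 in all 3 PH-CM libraries and in none of the others. With CO-CM, which of these genes stands higher depends on the length used. In raw counts, Ccnd3 (1702 reads) also exceeded Ccnd1 (1601 reads) in CO-CM replicate 1. The RPKM share of Ccnd2 was 1.84% ± 0.08 in UNX, 7.05% ± 1.48 with CO-CM and 14.2% ± 0.88 with PH-CM. The summed RPKM of the 3 genes was 119 ± 30.6 in UNX, 9.48 ± 1.64 with CO-CM and 6.48 ± 0.34 with PH-CM. Groups did not overlap for any of these shares, and each exact two-sided permutation test gave p = 0.1, the smallest p that 3 libraries against 3 allow (adjusted p = 0.1 over 21 tests).

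**Figure D2:**
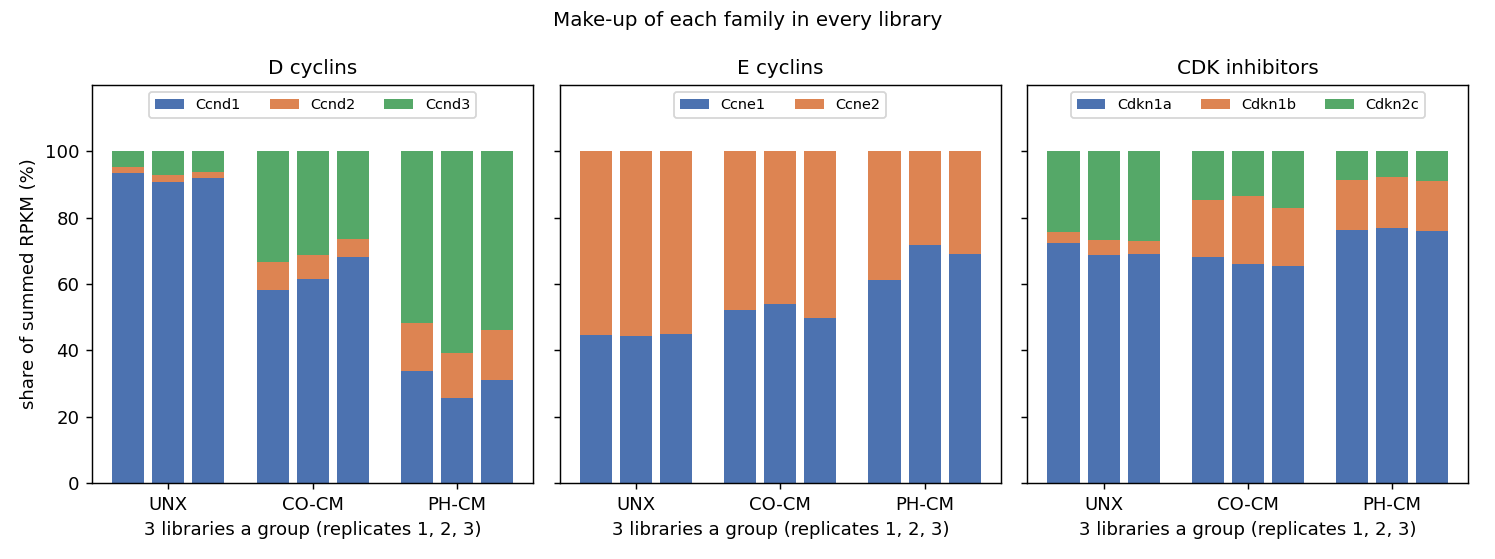
Share of each gene in the summed RPKM of its family (%, stacked bars, 1 bar per library) for D cyclins, E cyclins and CDK inhibitors in UNX, CO-CM and PH-CM. The Ccnd1 share is 92.1% on average in UNX, 62.7% with CO-CM and 30.3% with PH-CM. That of Cdkn1b is 3.86%, 18.5% and 15.2% in the same order.

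E cyclins activate CDK2 at the end of G1 and are themselves raised by E2F. Ccne1 (ENSMUSG00000002068, chr7:38097984-38107534, minus strand, up to 12 exons) measured 34.5, 32.1 and 32.7 CPM in UNX, 3.69, 3.74 and 4.98 CPM with CO-CM, and 3.90, 3.41 and 3.89 CPM with PH-CM. UNX stood apart, and the libraries of both media overlapped. It fell to 12.5% of UNX with CO-CM (log2 fold change -3.00 ± 0.11, edgeR FDR = 1.12e-08) and to 11.3% with PH-CM (-3.15 ± 0.11, FDR = 4.17e-09). No difference between the media was called (-0.15, 95% interval -0.41 to 0.12, FDR = 0.359).

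Ccne2 (ENSMUSG00000028212, chr4:11191351-11204779, plus strand, up to 12 exons) measured 56.3, 52.7 and 52.6 CPM in UNX, 4.42, 4.16 and 6.58 CPM with CO-CM, and 3.24, 1.75 and 2.28 CPM with PH-CM. All 3 groups were separate, and the PH-CM values rest on 109 to 218 reads a library. Ccne2 fell to 9.40% of UNX with CO-CM (log2 fold change -3.41 ± 0.19, edgeR FDR = 1.5e-07) and to 4.53% with PH-CM (-4.47 ± 0.21, FDR = 2.49e-08). It was 2.08-fold lower with PH-CM than with CO-CM (-1.05 ± 0.22, FDR = 0.00332). Of its exon bases, 17.4% are shared with Ints8 on the other strand, which had log2 fold changes of -0.28 with PH-CM and -0.32 with CO-CM.

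Per length, the balance of the E cyclins also differed between groups. Ccne2 held 55.3% ± 0.25 (SD, n = 3) of the summed E cyclin RPKM in UNX, 47.9% ± 2.16 with CO-CM and 32.6% ± 5.54 with PH-CM, again without overlap between groups (exact permutation p = 0.1 for each pair of groups, the smallest possible). The sum of both was 28.6 ± 1.50 RPKM in UNX, 2.94 ± 0.63 with CO-CM and 2.07 ± 0.33 with PH-CM.

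The CDK inhibitors moved in both directions. Cdkn1b encodes p27, an inhibitor that accumulates in resting cells. The gene (ENSMUSG00000003031, chr6:134920401-134925513, plus strand) measured 31.1, 36.6 and 31.1 CPM in UNX, 60.7, 85.9 and 64.6 CPM with CO-CM, and 71.4, 83.9 and 70.8 CPM with PH-CM. Every treated library stood above every UNX library, replicate 2 was the highest in each group, and the media overlapped. Cdkn1b rose 2.14-fold with CO-CM (log2 fold change 1.09 ± 0.13, edgeR FDR = 2.6e-05) and 2.29-fold with PH-CM (1.19 ± 0.13, FDR = 1.07e-05). The media were not called different (0.10, 95% interval -0.18 to 0.38, FDR = 0.573).

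Cdkn1a encodes p21, a target of p53 that is also made without it. The gene (ENSMUSG00000023067, chr17:29090976-29100727, plus strand, up to 3 exons) measured 326, 279 and 275 CPM in UNX, 116, 134 and 118 CPM with CO-CM, and 177, 205 and 173 CPM with PH-CM. PH-CM libraries lay between those of CO-CM and UNX with no overlap. Cdkn1a fell to 41.9% of UNX with CO-CM (log2 fold change -1.26 ± 0.09, edgeR FDR = 7.09e-07) and to 63.0% with PH-CM (-0.67 ± 0.09, FDR = 5.16e-05), and it was 1.50-fold higher with PH-CM than with CO-CM (0.59 ± 0.09, FDR = 0.000498).

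Cdkn2c encodes p18, the INK4 inhibitor of CDK4 and CDK6. The gene (ENSMUSG00000028551, chr4:109660876-109667189, minus strand, up to 3 exons) measured 133, 132 and 130.3 CPM in UNX, 30.0, 33.1 and 37.6 CPM with CO-CM, and 23.8, 24.7 and 24.7 CPM with PH-CM. Groups did not overlap, and UNX and PH-CM libraries varied by little. It fell to 25.5% of UNX with CO-CM (log2 fold change -1.97 ± 0.07, edgeR FDR = 9.57e-09) and to 18.6% with PH-CM (-2.43 ± 0.07, FDR = 1.52e-09), and it was 1.37-fold lower with PH-CM than with CO-CM (-0.46 ± 0.07, FDR = 0.00065).

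Per length, p21 RNA was the most abundant of the 3 inhibitors in every library. Cdkn1a held 70.0% ± 1.95 (SD, n = 3) of the summed inhibitor RPKM in UNX, 66.5% ± 1.42 with CO-CM and 76.4% ± 0.54 with PH-CM. Cdkn1b held 3.86% ± 0.51 in UNX, 18.5% ± 1.86 with CO-CM and 15.2% ± 0.15 with PH-CM, while Cdkn2c stood at 26.1% ± 1.52, 15.1% ± 1.91 and 8.39% ± 0.66. The exact permutation p was 0.1, the smallest possible, for each of these differences. The summed level was 194 ± 16.0 RPKM in UNX, 81.5 ± 6.04 with CO-CM and 107 ± 8.66 with PH-CM.

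Myc encodes a transcription factor of growth and ribosome production whose RNA follows mitogens closely. The gene (ENSMUSG00000022346, chr15:61985391-61990374, plus strand, up to 3 exons) measured 106, 82.6 and 85.0 CPM in UNX, 9.93, 11.7 and 14.8 CPM with CO-CM, and 8.45, 7.82 and 8.56 CPM with PH-CM. All 3 groups were separate, although the lowest CO-CM library came close to the highest PH-CM library. Myc fell to 13.3% of UNX with CO-CM (log2 fold change -2.91 ± 0.14, edgeR FDR = 5.4e-08) and to 9.08% with PH-CM (-3.46 ± 0.15, FDR = 1.2e-08). It was 1.47-fold lower with PH-CM than with CO-CM (-0.55 ± 0.14, FDR = 0.012, at most 0.0476 under any alternative).

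E2f1 encodes the E2F factor best known for activating replication genes, itself an E2F target. The gene (ENSMUSG00000027490, chr2:154559407-154569892, minus strand, up to 7 exons) measured 92.7, 92.1 and 94.1 CPM in UNX, 35.8, 37.4 and 39.1 CPM with CO-CM, and 38.8, 39.6 and 40.8 CPM with PH-CM. UNX stood far above both media, which overlapped, and the SE of each log2 fold change was the smallest of the 10 genes. E2f1 was at 40.3% of UNX with CO-CM (log2 fold change -1.31 ± 0.05, edgeR FDR = 8.61e-09) and at 42.7% with PH-CM (-1.23 ± 0.05, FDR = 4.93e-09). The media were not called different (0.09, 95% interval -0.02 to 0.19, FDR = 0.172).

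**Figure D3:**
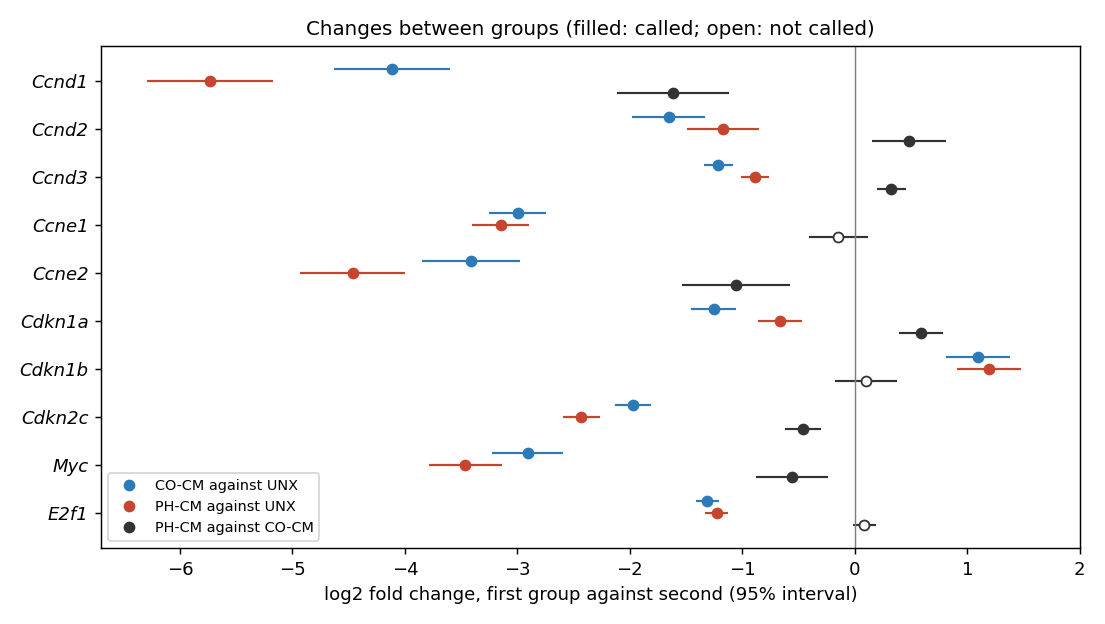
Log2 fold change of each gene (points) with its 95% interval (lines) for CO-CM against UNX, PH-CM against UNX and PH-CM against CO-CM, with filled points called and open points not called. Changes from UNX run from -5.73 for Ccnd1 to 1.19 for Cdkn1b with PH-CM, and the direct contrast from -1.62 for Ccnd1 to 0.59 for Cdkn1a.

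The order of the levels by RPKM, which depends on the annotated exon length of each gene, changed with treatment. In UNX, Cdkn1a (136 RPKM) and Ccnd1 (109 RPKM) came first with overlapping libraries, followed by Cdkn2c (50.4), Myc (34.6), E2f1 (30.3), Ccne2 (15.9), Ccne1 (12.8), then Cdkn1b (7.44) and Ccnd3 (6.90), which overlapped, and Ccnd2 (2.17). With PH-CM, Cdkn1a (82.2 RPKM) was followed by Cdkn1b (16.4), E2f1 (12.4), Cdkn2c (8.98), Ccnd3 (3.58), Myc (3.01), Ccnd1 (1.97), Ccne1 (1.39), and last by Ccnd2 (0.921) and Ccne2 (0.688), which overlapped. Ccnd1 thus went from the second place to the seventh, and Cdkn1b from the eighth to the second. With CO-CM, Cdkn1a (54.1 RPKM) stood first, Cdkn1b (15.1), Cdkn2c (12.2) and E2f1 (11.6) followed with each overlapping the next, Ccnd1 (5.99) overlapped Myc (4.37), and Ccnd2 (0.655) was last.

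The kinases, pocket proteins, E2F factors and further inhibitors that work with these genes were counted next, as a list of 23 G1 partners. Of the 23, 19 were lower and 2 higher with PH-CM (31.7% and 31.3% of all genes), with a median log2 fold change of -1.26. With CO-CM, 19 were lower and 2 higher (28.9% and 28.0% of all genes), with a median of -1.22. Between the media 8 were lower with PH-CM (15.0% of all genes) and none higher (12.2%), with a median of -0.04. These 8, and the 2 higher with CO-CM, include Cdkn1c, which passed the filter only through its CO-CM libraries. Cdk6, the D cyclin kinase that changed more, fell with both media (log2 fold change -2.10 with PH-CM and -1.31 with CO-CM) and was lower with PH-CM than with CO-CM (-0.79, edgeR FDR = 8.87e-05). Cdk2, the partner of the E cyclins, had log2 fold changes of -1.10 and -1.22. Rb1, the retinoblastoma gene, was not called with either medium (0.18 and 0.16), whereas its relative Rbl1 fell (-2.16 and -1.82).

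E2f7 and E2f8, the atypical repressive E2F factors, fell furthest in that list. E2f7 measured 45.5, 39.7 and 38.3 CPM in UNX, 3.67, 4.03 and 4.95 CPM with CO-CM, and 2.45, 1.40 and 1.88 CPM with PH-CM, with log2 fold changes of -3.29 with CO-CM and -4.42 with PH-CM. E2f8 changed by -2.91 and -3.84. Among partners of lesser change, the log2 fold changes with PH-CM and CO-CM were -1.49 and -1.26 for E2f2, -1.26 and -1.05 for E2f6, and -1.56 and -1.52 for Tfdp1, the dimer partner of E2F. Cdc25a, a phosphatase that activates CDK2, changed by -1.75 and -1.72.

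Gene-level RNA of the remaining INK4 genes fell along with Cdkn2c. With PH-CM and CO-CM, the log2 fold change was -2.90 and -2.25 for Cdkn2b, -2.20 and -1.56 for Cdkn2a, and -1.39 and -1.50 for Cdkn2d. Cdkn2a and Cdkn2b stood low, at means of 6.44 and 7.16 CPM in UNX, 2.19 and 1.50 CPM with CO-CM, and 1.41 and 0.96 CPM with PH-CM. Skp2, part of the ligase that removes p27, changed by -1.08 and -1.15, and its cofactor Cks1b by -2.70 and -2.01. Cdkn1c, which encodes p57 of the p21 and p27 family, measured 0.74, 1.59 and 1.29 CPM in UNX, 3.13, 4.16 and 4.61 CPM with CO-CM, and 0.88, 0.82 and 0.74 CPM with PH-CM. It was higher with CO-CM than in UNX (log2 fold change 1.70, edgeR FDR = 0.000125), and 4.86-fold lower with PH-CM than with CO-CM (-2.28, FDR = 8.67e-05), with no call for PH-CM against UNX (-0.58, FDR = 0.078). Cdkn1c passed the filter on low counts only through its CO-CM libraries, since every PH-CM library was below 1 CPM. Its high level with CO-CM is thus what admitted it to the tests, and its calls are given as a description only.

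E2F target genes and markers of mitosis fell with both media. All 20 E2F target genes were lower with PH-CM (median log2 fold change -3.41, 31.7% of all genes called lower) and with CO-CM (median -2.70, 28.9%), and all 20 were lower with PH-CM than with CO-CM (median -0.72), the contrast in which E2f1 itself was not called and 15.0% of all genes were called lower. Uhrf1, which maintains DNA methylation, changed by -4.73 with PH-CM and -3.48 with CO-CM. Chek1, a checkpoint kinase, changed by -4.54 with PH-CM, and Cdc6, a loader of the replicative helicase, by -3.47 with CO-CM. All 10 mitosis markers fell with each medium, with medians of -2.92 and -2.52, against the same shares of all genes. The furthest falls were those of Top2a (-3.62 and -2.85), Plk1 (-3.34 with PH-CM) and Aurkb (-2.64 with CO-CM).

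**Figure D4:**
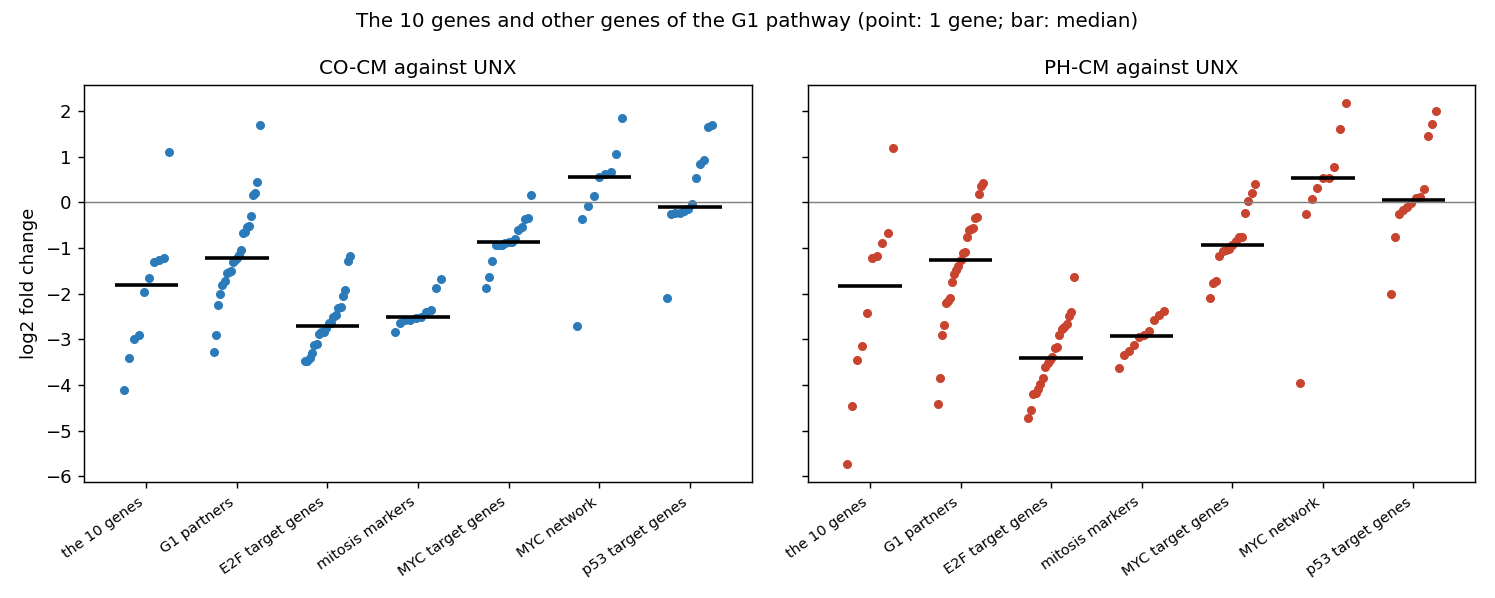
Log2 fold change of single genes (points, in order within each list) and the list median (bar) for the 10 genes and 6 lists of the same pathway, with CO-CM on the left and PH-CM on the right, both against UNX. All 20 E2F target genes and all 10 mitosis markers lie below 0, with medians of -3.41 and -2.92 for PH-CM. The 10 genes and each of the other lists hold genes on both sides of 0.

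Genes that act with MYC held both directions. Max, the obligate partner of MYC, was not called (log2 fold change 0.06 with PH-CM, -0.09 with CO-CM). Of the 9 network genes tested (Mycn and Mycl were below the filter), 6 were higher and 1 lower with PH-CM (31.3% and 31.7% of all genes), with a median of 0.53. With CO-CM, 5 were higher and 2 lower (28.0% and 28.9% of all genes), with a median of 0.56. MXD proteins compete with MYC for MAX. Mxi1, of that family, measured 25.6, 41.4 and 30.8 CPM in UNX, 54.1, 80.2 and 69.7 CPM with CO-CM, and 128, 161 and 154 CPM with PH-CM. Its groups were separate, with log2 fold changes of 1.06 with CO-CM (edgeR FDR = 0.000383), 2.18 with PH-CM (FDR = 1.78e-06) and 1.12 between them (FDR = 0.00072). Mxd4 rose by 1.85 with CO-CM and 1.62 with PH-CM on the log2 scale, whereas Mxd3 changed by -2.71 and -3.96.

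MYC target genes, mostly of ribosome assembly and biosynthesis, had smaller median changes than the E2F target genes. Of 15 tested, 11 were lower and none higher with PH-CM (median log2 fold change -0.92, 31.7% of all genes called lower), and 12 were lower and none higher with CO-CM (median -0.88, 28.9%). The largest falls were those of Srm, which makes spermidine (-2.08 and -1.87), and Nop56, a nucleolar protein (-1.75 with PH-CM, -1.63 with CO-CM). Between the media 2 were lower with PH-CM, 1 was higher and 12 were not called, where 27.1% of all genes were called.

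Of the 12 p53 targets beside Cdkn1a, 4 were higher and 2 lower with PH-CM (median log2 fold change 0.05), where 31.3% of all genes were called higher and 31.7% lower. With CO-CM 5 were higher and 1 lower (median -0.09), where the shares were 28.0% and 28.9%. In all, 6 of 12 were called with each medium, where 63.0% of all genes were called with PH-CM and 57.0% with CO-CM. Btg2, an antiproliferative gene, rose by 2.01 with PH-CM and 0.93 with CO-CM. Trp53inp1 rose by 1.73 and 1.65, and Gadd45a, a stress and DNA damage gene, by 1.44 and 1.70. Gdf15, a stress cytokine, changed by -2.00 and -2.10, and Mdm2, the negative regulator of p53, was not called with either medium (0.11 and -0.15).

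The profiles of Ccnd1, Myc and Cdkn1a over the 9 libraries were compared with those of 8567 genes of at least 10 CPM, by the root mean square difference of centred log2 CPM. Nearest to Ccnd1 were Uhrf1 (0.43), Pclaf (0.52), a partner of the replication clamp, and E2f7 (0.55). Nearest to Myc were Psat1, an enzyme of serine synthesis, Top2a and Mcm2, each at 0.12. Nearest to Cdkn1a was Rps6ka5 (0.07), a kinase of histones and transcription factors, which measured 19.6 ± 1.30 CPM (SD, n = 3) in UNX, 9.01 ± 0.79 CPM with CO-CM and 12.7 ± 0.89 CPM with PH-CM, followed by Gramd1b and Cemip2 (0.11 each). Among the 10 genes themselves, E2f1 and Ccnd3 were nearest to each other (0.15), as were Myc and Ccne1 (0.19), and Cdkn1b stood furthest from any other (1.02). The closest match to Ccnd1 was less close than that to Cdkn1a or Myc.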

How the data were processed

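RNA-Seq was available for 9 BMDM libraries, 3 each of UNX, CO-CM and PH-CM, grouped by their labels. The authors checked and trimmed the reads, used STAR for alignment to GRCm38 and featureCounts 1.6.2 for counting on exons. The deposited raw counts are whole numbers of reads for each gene and carry no normalization. The deposited RPKM values, by the authors, scale these counts to the length of all annotated exons of a gene and to library size. They were used for levels between genes. The authors' tables of their own edgeR comparisons were not used. The stated featureCounts call has no strand or read pair option, so strand was ignored and each mate counted singly. It also has no option to assign a read to several genes, so reads on exons shared by overlapping genes may be lost.

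The counts were read into edgeR 4.0.16 (R 4.3.3). The filter asked for a CPM above 1 in 3 or more libraries, and the 11950 of 53465 genes that met it were normalized by TMM and tested in one quasi-likelihood fit of all 9 libraries with a mean per group. Calls needed an FDR no higher than 0.05 together with a fold change of 1.2 or more. Values after ± are SE for log2 fold changes and SD otherwise. Shares of summed RPKM were compared by an exact permutation test. The 10 genes and all lists were chosen with earlier results of these data known, so list counts carry no test. Beside the 10 genes, those named are list genes of the G1 partners, MYC network and p53 targets called with a fold change of at least 2, of the other lists the 2 with the largest change in each direction against UNX, and those of nearest profile (log2 CPM, prior count 2). Rb1, Max and Mdm2 were named after their values were seen.

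Deviations from the group means correlated between libraries of the same replicate number (r from 0.276 to 0.484 in 9 pairs, against -0.376 to 0.0423 in 18 others). Such libraries were read as pairs only in same-number comparisons and in the replicate block. The main fit held no replicate term, so it treated them as independent. Libraries within a group all differed by more than sampling noise (chi-square per gene at least 10.6). Nothing in the labels says that the libraries of a group came from separate animals, so p-values measure the spread between these cultures. Alternatives were other tests (edgeR's exact test and DESeq2 1.42.0), scalings, filters and thresholds, fits of only the groups compared, a replicate block and each library left out. A further alternative, not planned beforehand, halved all counts. Gene positions come from GENCODE on GRCm38, and 53274 of the identifiers matched a name.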

Additional observations from a re-analysis of the deposited data

How the results depend on the processing

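The 30 log2 fold changes of the 10 genes (3 comparisons each) were recomputed under 21 alternatives. Of the 630 values, 618 kept their direction and their side of the threshold, 11 kept their direction but lost the call, and 1 changed sign. That was Ccne1 between the media, not called in either case, which ran from -0.22 to 0.008 over the libraries left out, the latter without CO-CM replicate 3. Requiring a 2-fold change, by its own construction, left 2 of the 7 calls between PH-CM and CO-CM, ended those of Ccnd3 and Cdkn1a for PH-CM against UNX, and left over all genes 2153 calls for PH-CM against UNX, 1655 for CO-CM against UNX and 612 for PH-CM against CO-CM. The other 4 losses were those of Ccnd2 between the media when a library was left out, with a log2 fold change of 0.44 to 0.46. With the replicate block, in which libraries of the same number are paired, the same 10, 10 and 7 of the genes were called, Ccnd2 at an FDR of 0.00222 and Myc at 0.00694 between the media. The block changed no call of the 10 genes.

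With scaling by library size only, by upper quartiles or by the size factors of DESeq2, the median of all genes moved by at most 0.07 on the log2 scale, and the 10 genes stood at 1 higher and 9 lower against UNX each time. From raw counts in place of RPKM, the Ccnd1 share of the D cyclins was 86.1% in UNX, 47.2% with CO-CM and 18.8% with PH-CM, because length is then not taken out. The Ccnd3 share from raw counts was 10.5% in UNX, 42.3% with CO-CM and 63.7% with PH-CM. The RPKM shares depend in turn on the annotated exon length, which need not be that of the RNA present. Counts of mates and the low level of Ccne2 with PH-CM limit precision there, and 3 libraries a group do not allow an exact p under 0.1.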
